A study of Homo sapiens with 6 samples.

Results

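Collagens are a family of extracellular proteins, and 5 of their chain genes were followed here together with SPARC and LOXL2 in SK-OV-3, a human cell line long established from an ovarian cancer, after exposure to fulvic acid. The genes are COL1A1, COL5A1, COL7A1, COL8A1, COL17A1, SPARC and LOXL2. They were chosen by symbol from the 459 genes of the deposited table, so that their presence in it is no result. The study compared 3 libraries from untreated wild-type SK-OV-3 cells (control 1, 2 and 3) with 3 libraries from wild-type cells that had 100 µg/ml fulvic acid (FA) in their medium for 48 h (FA 1, 2 and 3). Fulvic acid is the part of humic matter that stays dissolved in water at any pH. Its title concerns antitumor effects of fulvic acid and CYP1A1, and the comparison asks which transcripts differ with the treatment. Whether the replicates of a group are separate cultures is not stated, and the spread behind each p-value may be technical only.

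Collagen chains wind into triple helices that need glycine at a fixed, recurring position, so that their genes carry long runs in which a glycine codon returns at the same spacing. Fibrillar collagens (types I and V) assemble into fibrils, type VIII is a short-chain collagen that forms networks, type VII forms the anchoring fibrils that tie epithelial basement membranes to the tissue beneath, and type XVII spans the cell membrane at hemidesmosomes, the attachment points of epithelial cells. SPARC is a secreted calcium-binding glycoprotein that binds collagen, and LOXL2 is a copper-dependent amine oxidase of the lysyl oxidase family that starts the crosslinking of collagen and elastin by oxidising lysines.

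The repeats that define the collagen chains differ between the 5 genes, and the first 45 bases of the longest run of each are shown from its longest coding transcript in GENCODE release 29, with the glycine codons (GGN) in capitals.
COL1A1: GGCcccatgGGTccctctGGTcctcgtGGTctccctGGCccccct
COL5A1: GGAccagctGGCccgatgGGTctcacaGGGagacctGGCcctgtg
COL7A1: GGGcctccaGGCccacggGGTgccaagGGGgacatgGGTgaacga
COL8A1: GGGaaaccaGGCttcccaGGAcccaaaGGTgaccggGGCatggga
COL17A1: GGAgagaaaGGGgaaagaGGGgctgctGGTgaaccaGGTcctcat
Runs of at least 5 such triplets were counted along the coding sequence. The longest run held 338 triplets in both fibrillar chains, COL1A1 (1464 codons) and COL5A1 (1838 codons). It held 75 triplets in COL7A1, whose 401 triplets were spread over 16 runs, 61 in COL8A1 and 56 in COL17A1, whose 161 triplets also fell into 16 runs. SPARC (303 codons) and LOXL2 (774 codons) held none.

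The table holds only genes that the authors kept. In the authors' deposited table the largest FDR is 0.00977 and the smallest absolute log2 fold change 1.00. The 7 genes were therefore selected on the same contrast, and their changes are given as a description with the spread between libraries. All 7 were lower with FA, beside 74.5% of the 459 genes of the table listed as lower. In all 7 the 3 FA libraries lay below the 3 control libraries, which holds in either direction for 100% of the listed genes on depth-scaled counts and for 99.8% on FPKM, and so is no result about these genes. In bulk RNA, fewer cells that express a gene and less RNA per cell cannot be told apart. Implied depth was 39900000 to 50900000 fragments, and the groups overlapped in it. Levels are FPKM (fragments relative to gene length and sequencing depth), and log2 fold changes with standard errors (SE) are from a refit of the deposited counts with edgeR's quasi-likelihood test on the implied depth, adjusted over all 459 genes by the Benjamini-Hochberg method.

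In the control libraries the order by FPKM was the same 3 times, with SPARC highest, then LOXL2, COL5A1, COL7A1, COL17A1, COL8A1 and COL1A1. In the FA libraries it was again the same 3 times, but neighbours had changed places at both ends. LOXL2 stood above SPARC, and COL1A1 above COL8A1. Over the control libraries the ranges of SPARC and LOXL2 overlapped, so their order there rests on comparison within a library, while those of the other neighbours did not overlap, nor did any neighbours over the FA libraries. FPKM are scaled to gene length, so these are levels that can be set side by side.

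**Figure D1:**
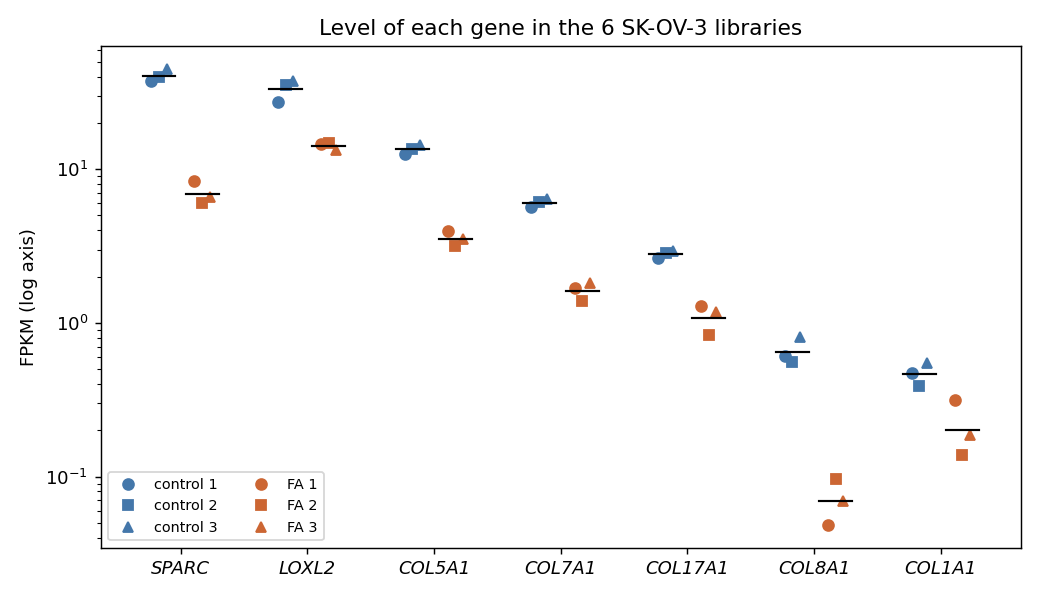
FPKM on a log axis of the 7 genes in each of the 6 libraries, with replicates 1, 2 and 3 as circles, squares and triangles and the geometric mean of each group as a bar. Every FA point lies below every control point of its gene, and SPARC falls from above LOXL2 to below it, as COL8A1 does with COL1A1.

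SPARC, the collagen-binding glycoprotein, was at 37.4, 39.7 and 45.0 FPKM in control 1, 2 and 3 and at 8.41, 6.04 and 6.57 FPKM in FA 1, 2 and 3. The lowest control library was 4.44 times the highest FA library. SPARC was 5.80-fold lower with FA (log2 -2.54, SE 0.16; edgeR adjusted p = 8.7e-08), and the values in the authors' deposited table are a log2 fold change of -2.48 and an FDR of 4.75e-54. Its decrease ranked 31 of the 342 lower genes in the authors' deposited table, counted from the largest decrease. SPARC (ENSG00000113140) lies on chromosome 5, positions 151661096 to 151687165, minus strand, and 7.89% of its exonic bases are also exonic in the antisense gene CLMAT3. Whether counting used strand is not stated.

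LOXL2, the crosslinking enzyme, was at 27.5, 35.4 and 37.7 FPKM in control 1, 2 and 3 and at 14.5, 14.7 and 13.3 FPKM in FA 1, 2 and 3. The FA libraries lay close together, while control 1 stood below the other controls. LOXL2 was 2.37-fold lower (log2 -1.25, SE 0.15; edgeR adjusted p = 7.0e-06), the smallest of the 7 decreases and rank 243 of 342 in the authors' deposited table. That log2 fold change lay beside a median of -1.28 over all 459 genes. TMM over the listed genes sets the typical listed gene near no change by construction. With the libraries scaled that way LOXL2 came to 6.1e-05 (SE 0.13; edgeR adjusted p = 1.0), no change in either direction. Such a scaling cannot decide the direction of LOXL2. LOXL2 (ENSG00000134013) lies on chromosome 8, positions 23297189 to 23425328, minus strand, and other genes, among them ENTPD4, cover 5.22% of its exonic bases.

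LOXL2 and SPARC were also compared within each library, where scaling cancels. The ratio of LOXL2 to SPARC was 0.737, 0.894 and 0.838 in control 1, 2 and 3 and 1.73, 2.43 and 2.02 in FA 1, 2 and 3. All control ratios were below 1 and all FA ratios above it. The geometric mean ratio went from 0.82 to 2.04, a log2 difference of 1.31 (SE 0.16; exact permutation test, two-sided, p = 0.1, adjusted p = 0.1 over 6 pairs). With 3 libraries against 3, 0.1 is the smallest p that this test allows. Leaving out any single library gave 1.19 to 1.43.

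Among the fibrillar chains, COL5A1, the type V chain that takes part in starting fibrils, was at 12.5, 13.6 and 14.3 FPKM in control 1, 2 and 3 and at 3.97, 3.15 and 3.51 FPKM in FA 1, 2 and 3. It was 3.79-fold lower (log2 -1.92, SE 0.14; edgeR adjusted p = 2.0e-07), and rested on 15950 control and 4049 FA counts. Its spread between libraries was small, with a coefficient of variation of depth-scaled counts of 6.7% in control and 12% in FA. COL5A1 (ENSG00000130635) lies on chromosome 9, positions 134641774 to 134844843, plus strand, and shares no exonic bases with another gene in the annotation used.

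COL1A1, the main chain of type I collagen, was the lowest of the 7 in the control libraries. Its counts were 121, 128 and 175 in control 1, 2 and 3 and 40, 42 and 64 in FA 1, 2 and 3, and on depth-scaled counts it was 2.83-fold lower (log2 -1.50, SE 0.24; edgeR adjusted p = 6.2e-05). Its FPKM were 0.473, 0.387 and 0.546 in the controls and 0.317, 0.138 and 0.187 in FA 1, 2 and 3. FA 1 is the highest of the FA libraries in FPKM although its 40 counts are the fewest. Count and FPKM together imply a length of 3.16 kb for COL1A1 in FA 1, beside 6.71 to 6.80 kb in the other FA libraries and 5.89 to 6.77 kb in the controls. The longest coding transcript has 6727 bases. The ratio of mean FPKM between groups was therefore 2.19, against 2.84 for depth-scaled counts, and the log2 ratio of mean FPKM went from -1.13 to -1.53 without FA 1, a comparison added after the values were seen. COL1A1 (ENSG00000108821) lies on chromosome 17, positions 50183289 to 50201632, minus strand.

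The ratio of COL5A1 to COL1A1 was 26.2 to 35.1 in the control libraries and 12.5 to 22.8 in the FA libraries on FPKM (log2 difference -0.73, SE 0.29; exact permutation test, adjusted p = 0.1). FA 1 gave the lowest of these ratios. Without FA 1 the difference was -0.49, and on counts, which do not carry the FPKM of FA 1, it was -0.44 with an exact permutation p of 0.2. On counts the groups overlapped, so the difference between the decreases of both fibrillar chains was not larger than the spread between libraries. SPARC moved further than either chain. Its ratio to COL5A1 went from 2.92 to 3.15 in the controls to 1.87 to 2.12 with FA (log2 difference -0.62, SE 0.064; exact permutation test, adjusted p = 0.1), and its ratio to COL1A1 from 79.0 to 102 in the controls to 26.5 to 43.7 (log2 difference -1.35, SE 0.24; exact permutation test, adjusted p = 0.1). The 26.5 is that of FA 1. Without FA 1 the difference from COL1A1 was -1.16, and on counts it was -1.05.

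COL8A1, the short-chain network collagen, had the largest decrease of the 7 genes. Its counts were 138, 138 and 182 in control 1, 2 and 3 and 12, 25 and 21 in FA 1, 2 and 3. The FA sum of 58 counts has an exact Poisson interval (95%) of 44.0 to 75.0 and the control sum of 458 one of 417 to 502. These intervals cover counting error only. In FPKM it went from 0.609, 0.557 and 0.803 to 0.0485, 0.0964 and 0.0698 in the libraries of the same order. COL8A1 was 7.64-fold lower (log2 -2.93, SE 0.28; edgeR adjusted p = 1.6e-06), rank 20 of 342 in the authors' deposited table, where its log2 fold change is -2.88. On depth-scaled counts its FA libraries were the most scattered of the 7 genes, with a coefficient of variation of 31%. Leaving out single libraries gave log2 fold changes of -3.17 to -2.75. The implied length was 4.78 to 5.21 kb in the controls and 5.81 to 6.20 kb with FA, so that the ratio of mean FPKM (9.17) exceeds that of depth-scaled counts (7.73). COL8A1 (ENSG00000144810) lies on chromosome 3, positions 99638475 to 99799226, plus strand.

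The ratio of COL8A1 to COL1A1, looked at after the values were seen and not tested, was 1.29, 1.44 and 1.47 in control 1, 2 and 3 and 0.153, 0.697 and 0.372 in FA 1, 2 and 3. COL8A1 was the higher of both in every control library and the lower in every FA library. FA 1, where the FPKM of COL1A1 stands apart from its count, gave the lowest ratio, and the order holds in FA 2 and FA 3 without it. The ratio of COL8A1 to COL5A1 was 0.0409 to 0.0561 in the controls and 0.0122 to 0.0306 with FA (log2 difference -1.31, SE 0.40; exact permutation test, adjusted p = 0.1). On counts this difference was -1.02, and without single libraries it was -1.63 to -0.97. With 0.1 added to each FPKM, a value above the level of COL8A1 in the FA libraries, it was -0.24 with an exact permutation p of 0.4.

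COL7A1 and COL17A1 both serve the attachment of epithelial cells to the matrix. COL7A1, the chain of anchoring fibrils, was at 5.66, 6.09 and 6.43 FPKM in control 1, 2 and 3 and at 1.69, 1.39 and 1.81 FPKM in FA 1, 2 and 3. It was 3.87-fold lower (log2 -1.95, SE 0.14; edgeR adjusted p = 2.0e-07). COL17A1, the transmembrane collagen of hemidesmosomes, was at 2.64, 2.84 and 2.92 FPKM in the controls and at 1.29, 0.835 and 1.18 FPKM in FA 1, 2 and 3, and was 2.57-fold lower (log2 -1.36, SE 0.18; edgeR adjusted p = 1.3e-05). In both genes FA 2 was the lowest library in FPKM, as it was in 5 of the 7 genes and in 37.4% of the 342 lower genes. COL7A1 (ENSG00000114270) lies on chromosome 3, positions 48564073 to 48595267, and COL17A1 (ENSG00000065618) on chromosome 10, positions 104031286 to 104085957, both on the minus strand. Each contains a miRNA gene that covers under 1% of its exonic bases.

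The ratio of COL7A1 to COL17A1 was nearly the same in the controls, at 2.14, 2.14 and 2.20, and was 1.31, 1.66 and 1.53 in FA 1, 2 and 3. The FA ratios were lower in 3 of 3 libraries, a log2 difference of -0.53 (SE 0.10; exact permutation test, two-sided, adjusted p = 0.1 over 6 pairs). In all 6 pairs tested the groups did not overlap on FPKM, beside 35.2% of all pairs of lower genes in the table. The pairs share genes, with SPARC and COL5A1 standing in 3 each and COL1A1 in 2, and were chosen with earlier results of these data known.

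**Figure D2:**
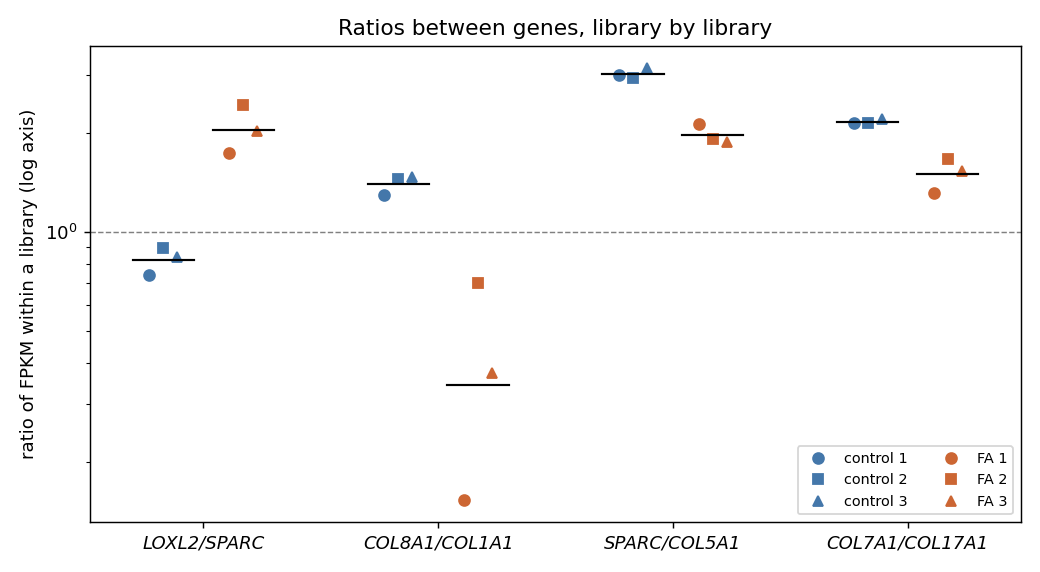
Ratio of FPKM within each library on a log axis for LOXL2 to SPARC, COL8A1 to COL1A1, SPARC to COL5A1 and COL7A1 to COL17A1, with the replicates as separate symbols, the geometric mean of each group as a bar and a dashed line at 1. LOXL2/SPARC crosses the line upwards with FA (0.82 to 2.04), COL8A1/COL1A1 crosses it downwards (1.40 to 0.341), and the other ratios move down without reaching it.

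Across the 7 genes the log2 fold changes ran from -1.25 (LOXL2) to -2.93 (COL8A1), with a median of -1.92 beside -1.28 over all 459 listed genes and -1.42 over the 342 lower ones. SPARC, COL8A1, COL7A1 and COL5A1 stayed lower past the threshold with TMM over the listed genes (edgeR adjusted p at most 0.00052), as 17.6% of the listed genes did, and likewise with DESeq2 size factors over the listed genes, where 19.0% did. COL1A1 and COL17A1 came to -0.25 and -0.12 under that scaling and did not pass (edgeR adjusted p = 0.47 and 0.64). Which genes keep their call under it follows largely from the size of the decrease.

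**Figure D3:**
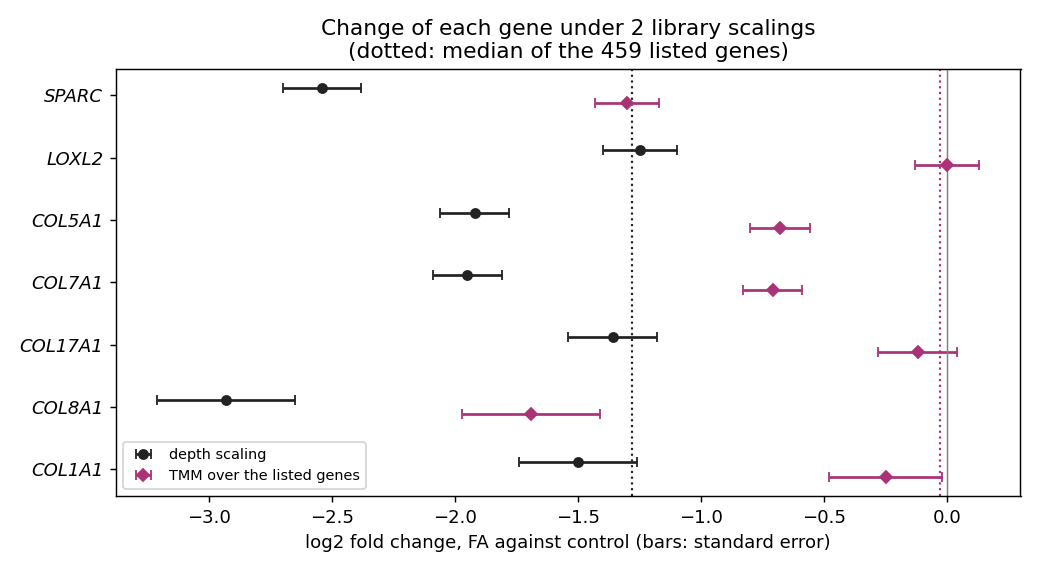
Log2 fold change of FA against control with its standard error for the 7 genes, with libraries scaled by implied depth (circles) or by TMM over the listed genes (diamonds), and the median of the 459 listed genes under each scaling as a dotted line. With depth scaling all 7 lie below 0, and LOXL2 lies near the dotted line under both scalings.

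The replicates of a group did not scatter independently over the 7 genes. Control 3 was the highest control library in FPKM in 7 of 7 genes, as it was in 46.8% of the 342 lower genes of the table. Control 1 was the lowest control library in 5 of 7, beside 48.0% of the lower genes. In control 1, depth-scaled counts deviated from the other controls with GC content over 370 annotated genes of the table (Spearman's rho -0.76 across genes, which share libraries and are not independent). The 7 genes had transcript GC contents of 46.8% (COL8A1) to 64.8% (COL7A1), and in control 1 they lay below the mean of the other controls by log2 values from -0.07 (COL8A1) to -0.42 (LOXL2, 58.2% GC). Between these lay COL17A1 (55.9% GC) at -0.10, COL7A1 at -0.14, COL5A1 (60.3% GC) at -0.16, and SPARC (47.3% GC) and COL1A1 (61.1% GC) at -0.18. Over the 370 genes, whose median GC content was 52.4%, those richer in GC tended to lie lower in control 1. The deviations of the 7 genes were not in order of GC content, and so few values cannot decide its part. Without control 1 the log2 fold change of LOXL2 was -1.37, and all 7 genes were lower past the threshold. Groups that do not overlap keep their direction without any 1 library by construction, and the part of GC content in the changes was not tested.

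COL5A1 and COL7A1 were the members most alike. Likeness was measured as the Euclidean distance, over the 6 libraries, between log2 depth-scaled counts set relative to the control mean, against 369 other named genes whose mean count was 50 or more. Values set relative to the control mean carry the size of the decrease, so genes with equal decreases lie close together. COL5A1 and COL7A1, 3.79-fold and 3.87-fold lower, lay 0.16 apart. The next gene for both was PMEPA1, which encodes a transmembrane protein that limits TGF-beta signalling, at 0.21 from COL5A1 and 0.30 from COL7A1, and it was 3.55-fold lower. COL17A1 was nearest to SH3RF2 (0.17) and CCBE1 (0.31), COL1A1 to BMF (0.21) and COL6A3 (0.41), SPARC to MT2A (0.37) and MMP1 (0.38), and LOXL2 to JUNB (0.05) and ADGRG1 (0.08). COL8A1 had no close neighbour, the next genes being ID1 at 0.87 and ITGB3 at 0.91.

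Of a list of 114 other genes of collagen biology, 11 were in the table, 10 of them lower and 1 higher with FA, beside 74.5% lower in the table. Genes of the list outside the table were not analysed here. Among the 39 other collagen chain genes, 3 were in the table and all 3 were lower. COL5A2, which joins COL5A1 in type V collagen, went from 0.952 ± 0.18 to 0.236 ± 0.068 FPKM (SD, n = 3), 4.02-fold lower, beside 3.79-fold for COL5A1. The ratio of COL5A2 to COL5A1, chosen after the values were seen and not tested, was 0.0590 to 0.0926 in the controls and 0.0489 to 0.0975 with FA, and these ranges overlap. COL6A3 of microfibrillar type VI collagen was 2.57-fold lower and COL4A5 of basement membrane type IV collagen 2.96-fold lower, the latter on a mean of 45.2 counts.

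Of 27 processing genes, ADAMTS2, which cleaves the amino-terminal propeptide of fibrillar procollagens, and TLL2, a tolloid-like protease, were listed and were 2.27-fold and 3.11-fold lower. TLL2 had a mean of 47.2 counts, and ADAMTS2 lay near 0 with TMM over the listed genes (log2 0.07, SE 0.19; edgeR adjusted p = 0.85). Of 21 collagen-associated and matricellular genes, TGFBI went from 11.4 ± 1.6 to 1.06 ± 0.33 FPKM, THBS1 (thrombospondin-1) from 12.7 ± 1.0 to 1.74 ± 0.44 FPKM and ECM1 from 0.997 ± 0.083 to 0.217 ± 0.15 FPKM. SMOC1, a relative of SPARC with a calcium-binding domain of the same kind, was the 1 gene that was higher, from 0.342 ± 0.099 to 0.683 ± 0.24 FPKM (log2 1.13, SE 0.24; edgeR adjusted p = 0.00056). Of the 9 collagenases and inhibitors of the list, 2 were in the table and both were lower, MMP1 (interstitial collagenase) 5.65-fold and MMP2 (gelatinase A) 2.74-fold. The list did not hold every enzyme of this family. None of the 8 anchoring and hemidesmosome genes and 10 collagen receptor genes of the list was in the table. None of the 11 had an edgeR adjusted p above 0.00056. In the same refit 100% of the 459 listed genes passed the threshold of 0.05, so this is no result about the 11. With TMM over the listed genes COL5A2, THBS1, TGFBI and MMP1 stayed lower past the threshold and SMOC1 higher. COL4A5 (log2 -0.33, edgeR adjusted p = 0.53), COL6A3 (-0.12, 0.71), TLL2 (-0.40, 0.27), MMP2 (-0.21, 0.26) and ECM1 (-1.0, 0.061) stayed lower but did not pass, and with DESeq2 size factors the same held for these genes except ECM1, which passed.

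**Figure D4:**
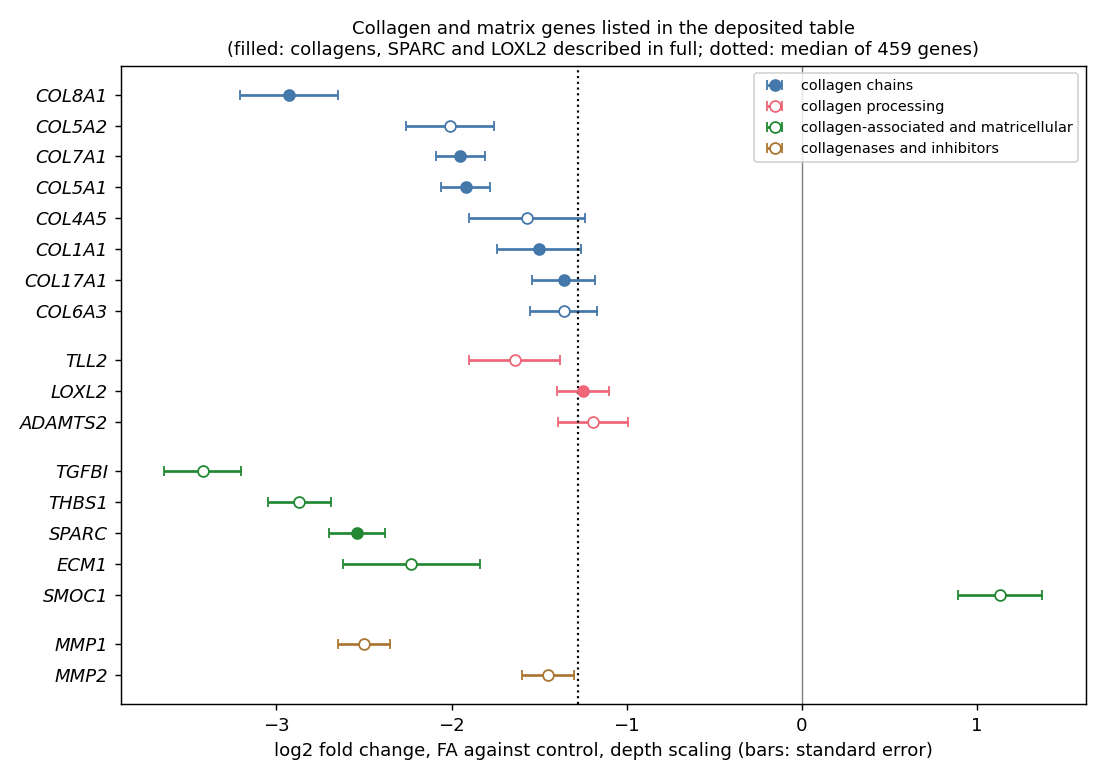
Log2 fold change of FA against control with its standard error, with depth scaling, for the 7 genes (filled) and the 11 other genes of the collagen list found in the table (open), grouped by role, with the median of the 459 listed genes dotted. SMOC1 is the gene to the right of 0 at 1.13, and TGFBI lies furthest to the left at -3.42.

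Markers of cell identity could be read only where the table lists them. Of 7 epithelial markers CDH1 was listed, at 11.0 to 11.5 FPKM in the controls and 21.1 to 24.1 FPKM with FA. Of 10 fibroblast markers COL6A3 was listed, at 0.860 to 1.16 FPKM in the controls and 0.278 to 0.517 FPKM with FA. None of the 5 ovarian carcinoma, 3 endothelial and 2 leukocyte markers was in the table, so the labelled cell type could not be checked against its markers, and their part in the result was not tested.

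The set of promoter windows used here lacked COL1A1, COL8A1 and LOXL2. It held windows of 250 bases before to 50 after the start (RefSeq, GRCh38.p14) for 4 of the 7 genes. These windows are shown, 5′ to 3′ on the gene's strand, because the genes were lower together. Matches of the searched motifs are in capitals. The windows are chr5:151686866-151687165 (minus) for SPARC, chr9:134641553-134641852 (plus, the first of 2 overlapping windows) for COL5A1, chr3:48595280-48595579 (minus) for COL7A1 and chr10:104085831-104086130 (minus) for COL17A1. Positions count from the start that each window sets, which differs from the gene bounds given above. The COL7A1 window lies outside those bounds, and the SPARC window lies wholly within them.
SPARC: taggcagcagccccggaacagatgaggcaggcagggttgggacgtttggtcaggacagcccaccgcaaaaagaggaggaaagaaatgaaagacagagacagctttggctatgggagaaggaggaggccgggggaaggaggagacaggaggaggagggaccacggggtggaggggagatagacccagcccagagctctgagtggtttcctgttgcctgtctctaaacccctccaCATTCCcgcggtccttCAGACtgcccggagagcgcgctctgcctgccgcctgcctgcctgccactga
COL5A1: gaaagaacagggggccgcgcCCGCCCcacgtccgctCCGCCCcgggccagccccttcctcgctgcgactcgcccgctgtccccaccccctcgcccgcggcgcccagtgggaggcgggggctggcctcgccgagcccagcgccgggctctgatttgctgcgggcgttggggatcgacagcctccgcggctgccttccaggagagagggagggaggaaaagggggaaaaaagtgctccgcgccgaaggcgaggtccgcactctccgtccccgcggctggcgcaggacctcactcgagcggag
COL7A1: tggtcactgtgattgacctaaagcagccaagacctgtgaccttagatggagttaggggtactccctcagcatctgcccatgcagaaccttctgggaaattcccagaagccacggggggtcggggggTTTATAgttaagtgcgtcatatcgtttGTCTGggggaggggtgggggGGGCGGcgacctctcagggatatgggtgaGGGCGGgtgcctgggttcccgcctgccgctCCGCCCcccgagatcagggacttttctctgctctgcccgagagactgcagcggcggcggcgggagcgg
COL17A1: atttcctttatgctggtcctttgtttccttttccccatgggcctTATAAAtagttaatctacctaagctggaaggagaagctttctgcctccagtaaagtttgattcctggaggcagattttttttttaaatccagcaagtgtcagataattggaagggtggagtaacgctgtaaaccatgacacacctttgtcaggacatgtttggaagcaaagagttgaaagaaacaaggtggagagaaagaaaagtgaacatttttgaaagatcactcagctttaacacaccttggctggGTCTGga
Searched on both strands were the AP-1 motif TGANTCA, the SMAD-binding motif CAGAC, the GC box GGGCGG, the AHR core GCGTG, the TATA box TATAAA and the TEAD motif GGAATG. Of the 35116 windows of that set, 7.71%, 45.3%, 45.0%, 36.5%, 11.5% and 14.0% held these in the same order. The SMAD-binding motif was found once each in SPARC, COL7A1 and COL17A1, and the TEAD motif once in SPARC. The GC box was found in COL7A1 (3 matches) and COL5A1 (2 matches), whose windows were 62.3% and 74.0% GC. The letters of the TATA box were found once each in COL7A1, at position -124 from the start, and COL17A1, at -206. No AP-1 motif and no AHR core was found in these 4 windows, which says only that these letters are not in them. The window of COL17A1 was 40.7% GC and that of SPARC 61.3%. None of the searched motifs was found in all 4 windows.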

How the data were processed

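RNA sequencing was measured in 6 libraries of polyadenylated RNA, per the labels' protocols. The deposited table gives raw counts per gene and library, FPKM, an FDR (adjusted p-value) and a log2 fold change per gene, all made by the authors, per the file headers. Per the submitters' processing notes, the build was GRCh38. The aligner, counter and test of the authors are unknown here (not given in the sources used here). The members, gene lists and tests were chosen with earlier results of these data known. Named are the 7 genes, the genes of the collagen list found in the table and the 2 genes nearest to each member, apart from a gene that is not reported here and was left out of both.

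Relative depth was taken from count over FPKM in 180 genes that had 200 or more counts in each library. Its scale came from 16 genes with 1 annotated transcript and 100 or more counts in each library (GENCODE release 29). Implied length is count over FPKM and depth. Counts of all 459 genes were fitted with edgeR 4.0.16 (R 4.3.3; group as the only term, threshold 0.05 on the Benjamini-Hochberg adjusted p). SE is the absolute log2 fold change over the square root of F. In simulated counts for the 459 genes the fit called 72% of genes changed 1.5-fold, 96% changed 2-fold, 100% changed 3-fold and 3.09% of 259 unchanged genes. Ratios were tested by an exact permutation test (scipy 1.17.1). Alternatives used DESeq2 1.42.0 and limma 3.58.1. No protein sequences were used.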

Additional observations from a re-analysis of the deposited data

How the results depend on the processing

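The 7 genes kept their direction and their call in 77 of 77 values under column totals, a minimum mean of 50 counts, limma on log2(FPKM + 0.1) or log2(FPKM + 1), the replicate block and leaving out each library, with an adjusted p of at most 0.0026. The same settings called 342 of the 459 listed genes lower, or 309 of 418 with the count minimum. In the main refit 100% of the listed genes passed in either direction, so these calls are no result about the 7 genes. With scaling from the listed genes alone, 4 of the 7 genes passed with TMM and 4 with DESeq2 size factors. Of the 11 genes of the collagen list, 4 and 5 were lower past the threshold instead of 10. Beside these, 17.6% and 19.0% of the 459 listed genes were lower past it. Such scaling places the middle of the listed genes near no change by construction and shifted the median log2 fold change by 1.2. The log2 fold changes with TMM and DESeq2 were -0.25 and -0.26 for COL1A1, -0.12 and -0.13 for COL17A1, 6.1e-05 and -0.01 for LOXL2, and 0.07 and 0.06 for ADAMTS2. All of these missed the threshold. LOXL2 (TMM) and ADAMTS2 (both) lay above 0 by less than their SE, so no reversal of direction was seen.

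The deviations of same-numbered libraries of both groups had correlations of 0.012, 0.14 and -0.22 over 418 genes. These values cannot decide whether same-numbered libraries belong together. With the replicate block 342 genes were lower and 117 higher, as without it, and the log2 fold change of LOXL2 was -1.23. For ratios the block gave 1.31 for LOXL2/SPARC, with an exact p of 0.25, the smallest that 3 pairs allow. FPKM + 0.1 moved COL8A1/COL5A1 from -1.31 to -0.24 (exact permutation p = 0.4), since COL8A1 lies below 0.1 FPKM with FA. Genes outside the table limit all of this, since the authors' test cannot be repeated without them. Of the 7 genes COL8A1 had the fewest counts, with a mean of 86.0, and COL1A1 the next fewest.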
